A study of Mus musculus with 42 samples.

Results

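Siglecf, Marco, Mrc1, Chil3, Ear1, Ear2, Plet1, Krt79 and Atp6v0d2 are genes by which alveolar macrophages of the mouse lung are recognised. They were chosen by name from the deposited gene table, in which they are 9 of 54532 genes, and each is 1 row of that table. All 9 passed the filter on low values, a mean of at least 0.5 FPKM over all libraries (FPKM, fragments per kilobase of gene length, here scaled by the authors with 1 factor per library), which left 16962 genes. The lungs came from wild-type C57BL/6J mice in 2 conditions. Before collection, SD mice were placed in SD cages and Ctrl mice in home cages, in both cases for 20 h a day from clock hour 14 to clock hour 10 on 2 days, and the treatment is called sleep deficiency in the title of the series. Lights were on from clock hour 8 to clock hour 20, and lungs were collected from clock hour 8 (ZT0) every 4 h up to ZT24, which gave 14 groups of 3 libraries, 42 in all. No allele or transgene is named for any group, and the sources used here do not give age. The labels number the libraries of a group as biological replicates without saying whether each came from 1 mouse or from a pool, so the p-values below measure the spread between libraries of a group. Each time was collected once in each condition, so that the time of day and anything else the 3 libraries of a group share cannot be told apart.

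Alveolar macrophages live on the air side of the alveolus, where they take up surfactant, inhaled particles and microbes. They settle there around birth, renew largely in place, and depend on GM-CSF, a cytokine made by the alveolar epithelium, and on TGF-beta, which together maintain the transcription factor PPAR gamma. PU.1, encoded by Spi1, is a transcription factor required for the macrophage lineage. Several of the 9 genes are also used by other cells: Siglecf and the Ear genes by eosinophils, Chil3 by neutrophils and by macrophages exposed to type 2 cytokines, Mrc1 by interstitial macrophages and some endothelial cells, and Plet1 by epithelial cells.

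Recovered read numbers were 25285525 to 29790252 per library, and the lowest number of reads for any of the 9 genes in any library was 220. The first principal component was 99.97% between groups, and the median standard deviation of a gene within a group was 0.084 log2 units in Ctrl and 0.078 in SD, so libraries of a group lay close together compared with the distances between groups. Genes of alveolar type 2 cells, the surfactant producers, summed to 18580.2 FPKM or more in every group. Ctrl lungs differed from one another in other cell types: the summed FPKM of 10 plasma cell genes reached 485 (ZT8), 514 (ZT12), 828 (ZT16) and 265 (ZT24), against 148 to 188 in the other 10 groups, and 11 mucous airway genes summed to 1985 to 6977 FPKM in Ctrl lungs from ZT4 to ZT16 and 2731 at ZT24, against 88.2 to 2768 in SD. Their part in the results below was not tested. Averages are also given from ZT0, ZT4 and ZT20 alone, which leaves out the times of high plasma cell sums in Ctrl. The mucous airway sums still differed at the times kept. In Ctrl and SD they were 363 and 1170 FPKM at ZT0, 1985 and 438 at ZT4, and 112 and 333 at ZT20.

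In Ctrl lungs, 8 of the 9 genes stood highest at ZT16, in the dark phase, where all 3 libraries lay above the other 18 Ctrl libraries; over all tested genes, 11.7% did so. Plet1 was the exception and stood highest at ZT12. In SD lungs at ZT16, all 9 genes were called lower than in Ctrl (27.1% of all tested genes were called lower there, 56.1% in either direction), while at ZT4 all 9 were called higher (19.2% of all tested genes, 39.2% in either direction). A gene is called here when the Benjamini-Hochberg adjusted p of limma's moderated test on log2(FPKM + 1) was under 0.05, with the adjustment over all 16962 genes. In whole lung RNA, fewer cells of a type and less RNA per cell cannot be told apart, so these are statements about transcript levels in the tissue.

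**Figure D1:**
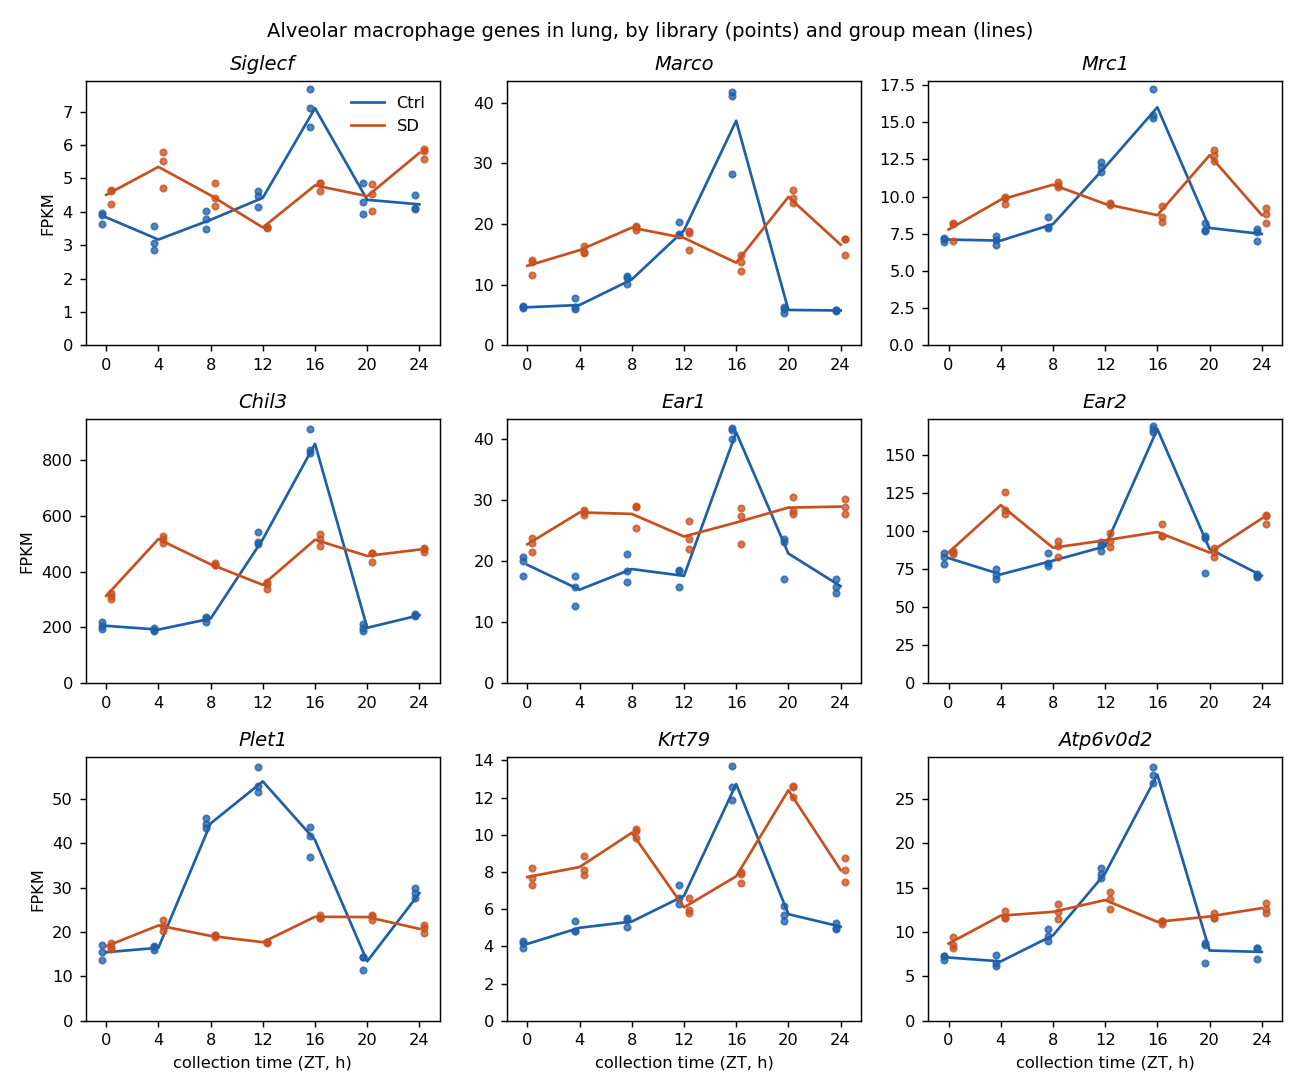
FPKM of each of the 9 genes against collection time in hours of zeitgeber time, with 1 point per library and lines through the means of 3 libraries, Ctrl in blue and SD in orange. In Ctrl, 8 genes are highest at ZT16, with ZT12 the next of the Ctrl groups by mean for all of them but Ear1, and Plet1 is high from ZT8 to ZT16, whereas the SD lines stay within a narrower range.

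Receptors for particles and microbes come first. Marco (ENSMUSG00000026390, chr1:120474538-120505024, minus strand; mm10, the build named in the submitters' notes) encodes a class A scavenger receptor that binds bacteria and uncoated particles. In Ctrl lungs, Marco FPKM in the 3 libraries were 6.44, 6.14 and 6.24 at ZT0, 5.93, 7.73 and 6.25 at ZT4, 10.2, 11.03 and 11.4 at ZT8, 18.4, 18.2 and 20.3 at ZT12, 41.05, 28.3 and 41.8 at ZT16, 6.32, 5.25 and 5.90 at ZT20 and 5.74, 5.82 and 5.64 at ZT24. In SD lungs, Marco FPKM were 13.7, 14.1 and 11.6 at ZT0, 15.4, 16.4 and 15.2 at ZT4, 19.5, 19.7 and 19.02 at ZT8, 18.9, 15.6 and 18.6 at ZT12, 14.8, 13.7 and 12.3 at ZT16, 23.5, 24.2 and 25.6 at ZT20 and 17.5, 17.5 and 14.8 at ZT24. The Ctrl group means were higher at each collection from ZT4 to ZT16 and lowest at ZT20 and ZT24, while every SD library lay above every Ctrl library of the same time at ZT0, ZT4, ZT8, ZT20 and ZT24. Replicate 2 of Ctrl at ZT16, at 28.3 FPKM, was well below the other two and still above all SD libraries. The ZT16 mean of Ctrl was 5.74 times the median of the other 6 Ctrl group means. On the log2(FPKM + 1) scale, SD minus Ctrl was -1.36 ± 0.10 (SE) at ZT16, adjusted p = 2.76e-13 in limma, and 1.90 ± 0.10 at ZT20, adjusted p = 6.47e-17 in limma, so Marco went from 2.57-fold lower to 3.74-fold higher within 4 h of collection time. At ZT12, where the groups overlapped, the difference of -0.095 ± 0.10 was not called (limma, adjusted p = 0.465).

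Mrc1 (ENSMUSG00000026712, chr2:14229392-14332057, plus strand) encodes the mannose receptor CD206, an endocytic receptor for mannose-bearing glycoproteins. Its FPKM in Ctrl libraries were 11.7, 12.3 and 11.97 at ZT12, 15.2, 17.2 and 15.5 at ZT16 and 7.69, 7.72 and 8.25 at ZT20, and all other Ctrl libraries were between 6.71 and 8.60. Its SD libraries were at 9.49, 9.59 and 9.43 at ZT12, 8.61, 9.37 and 8.25 at ZT16 and 12.8, 13.1 and 12.4 at ZT20, and the highest SD group was ZT20. Every SD library was below every Ctrl library at ZT12 and ZT16, and above them at ZT20. SD minus Ctrl was -0.31 ± 0.051 at ZT12, -0.80 ± 0.051 at ZT16 and 0.63 ± 0.051 at ZT20 on the log2 scale, each called (limma, adjusted p = 7.59e-06, 5.8e-15 and 2.36e-12). At ZT0 the groups overlapped and Mrc1 was not called (0.11 ± 0.051; limma, adjusted p = 0.0846).

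Siglecf (ENSMUSG00000039013, chr7:43351341-43359531, plus strand) encodes a sialic acid binding lectin of the cell surface that carries inhibitory signalling motifs. It was the least abundant of the 9 by group means, between 3.17 and 7.11 FPKM. Its FPKM in Ctrl libraries were 2.86, 3.59 and 3.06 at ZT4, 6.53, 7.11 and 7.68 at ZT16 and 4.88, 3.92 and 4.28 at ZT20. SD libraries were at 5.53, 4.71 and 5.81 at ZT4, 4.64, 4.88 and 4.87 at ZT16 and 4.84, 4.54 and 4.03 at ZT20. The groups were apart in opposite directions at ZT4 and ZT16 and overlapped at ZT20. SD minus Ctrl was 0.61 ± 0.07 at ZT4, -0.48 ± 0.07 at ZT16 and 0.03 ± 0.07 at ZT20, the last not called (limma, adjusted p = 2.17e-08, 4.96e-07 and 0.728). Siglecf also marks eosinophils. Of their granule genes, Epx, the eosinophil peroxidase, reached at most 0.0513 FPKM as a group mean. Prg2, which codes for major basic protein, was highest in the same group as Siglecf, at 2.20 ± 0.536 FPKM in Ctrl at ZT16, and was called lower in SD there (-1.15 ± 0.13; limma, adjusted p = 6.01e-09). The 5 eosinophil genes together ranged from 0.349 to 3.33 FPKM over the groups, with the highest value also in Ctrl at ZT16, and their part in the Siglecf level was not tested.

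The promoters of these 3 receptor genes are shown because they were the only ones of the 8 promoters found that hold GAGGAA, the core recognised by PU.1. The 250 bases before each start are from RefSeq, build GRCm38.p6, written 5′ to 3′ on the gene's strand, with matches to GAGGAA or its reverse complement in capitals; Siglecf lies at chr7:43351091-43351340, plus strand, Marco at chr1:120505025-120505274, minus strand and Mrc1 at chr2:14229164-14229413, plus strand.
Siglecf: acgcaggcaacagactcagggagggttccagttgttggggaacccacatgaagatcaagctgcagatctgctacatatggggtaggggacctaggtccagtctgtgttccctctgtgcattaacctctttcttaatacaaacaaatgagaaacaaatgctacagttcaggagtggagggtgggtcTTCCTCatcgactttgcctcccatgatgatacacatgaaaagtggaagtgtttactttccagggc
Marco: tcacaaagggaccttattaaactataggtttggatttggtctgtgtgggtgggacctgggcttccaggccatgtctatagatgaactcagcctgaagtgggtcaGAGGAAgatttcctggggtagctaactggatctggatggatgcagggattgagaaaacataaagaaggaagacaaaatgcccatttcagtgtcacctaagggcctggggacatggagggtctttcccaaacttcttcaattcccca
Mrc1: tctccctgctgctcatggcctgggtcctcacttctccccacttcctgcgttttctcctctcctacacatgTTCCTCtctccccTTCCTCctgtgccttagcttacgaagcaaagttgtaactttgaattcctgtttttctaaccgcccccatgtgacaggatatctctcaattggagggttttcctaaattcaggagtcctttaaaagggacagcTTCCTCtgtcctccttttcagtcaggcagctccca
Mrc1 has 3 matches and the others 1 each, and its RefSeq start is not the start that the deposited table gives. Of 32851 promoters of the same length, 23.3% hold GAGGAA on either strand, so 3 of 8 is a count and not a result about these genes. The nuclear receptor half-site AGGTCA, in 14.0% of all promoters, was found in Plet1, and neither the E-box CACGTG (6.02% of all promoters) nor the AP-1 site TGACTCA (4.46%) was found in any of the 8 windows. None of these 4 motifs overlaps another in these windows. Atp6v0d2 had no entry in the promoter table.

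Of the secreted proteins, Chil3 (ENSMUSG00000040809, chr3:106147554-106167564, minus strand), also called Ym1, is a chitinase-like lectin without chitinase activity, and it was the most abundant of the 9 genes per length. In Ctrl lungs, Chil3 FPKM were 204, 193 and 219 at ZT0, 187, 198 and 191 at ZT4, 234, 221 and 239 at ZT8, 499, 542 and 508 at ZT12, 839, 913 and 826 at ZT16, 210.3, 187 and 199 at ZT20 and 247, 239 and 245 at ZT24. In SD lungs, Chil3 FPKM were 302, 325 and 312 at ZT0, 519, 529.7 and 503 at ZT4, 425, 431 and 423 at ZT8, 339, 363 and 356 at ZT12, 516, 535 and 494 at ZT16, 469, 466 and 435 at ZT20 and 471, 486 and 482 at ZT24. Ctrl values were between 187 and 219 FPKM at ZT0, ZT4 and ZT20 and between 826 and 913 at ZT16, and the 3 SD and 3 Ctrl libraries did not overlap at any of the 7 times. SD minus Ctrl was 1.43 ± 0.047 at ZT4 (2.69-fold; limma, adjusted p = 1.06e-21), -0.55 ± 0.047 at ZT12, -0.74 ± 0.047 at ZT16 (1.67-fold lower; limma, adjusted p = 4.91e-15) and 1.199 ± 0.047 at ZT20. Neutrophils also make Chil3. Of 10 neutrophil genes, 8 were called higher in SD averaged over the times, with summed group means of 329 to 1039 FPKM in Ctrl and 626 to 1374 in SD. Over all tested genes 34.6% were called higher on that average. When each group counted as 1 value, 2 of the 10 were called higher and 0 lower, against 9.16% and 7.79% of all tested genes. At times when Chil3 was called higher, 4 of the 10 were called higher at ZT0, 8 at ZT4, 8 at ZT8 and 9 at ZT20 (medians 0.21, 0.96, 1.798 and 1.83), and at ZT24 7 were called lower and 1 higher (median -0.66) against 0.97 ± 0.047 for Chil3. At ZT12 and ZT16, where Chil3 was called lower, all 10 were called higher (medians 1.52 and 1.19). The share of all tested genes called higher was 18.0% at ZT0, 19.2% at ZT4, 27.1% at ZT8 and 33.0% at ZT20. It was 24.4% at ZT12, 29.1% at ZT16 and 24.4% at ZT24, where 22.3% were called lower. The part of neutrophils in the Chil3 level was not tested.

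Its close copy Chil4 was low, at most 1.78 ± 0.385 FPKM as a group mean. The main transcripts of Chil3 and Chil4 in GENCODE vM21 were 94.4% identical with a longest shared run of 136 bases, and the sources used here do not say how reads that map to both genes were counted. At type 2 activation Chil3 is known to be induced together with Retnla, which encodes a secreted protein of macrophages and epithelium. Here Retnla was highest in Ctrl at ZT12 (626 ± 15.7 FPKM), 1 collection before Chil3. Like Chil3 it was called lower in SD at ZT12 (161 ± 14.1 FPKM against 626 ± 15.7 in Ctrl) and ZT16 (70.9 ± 4.87 against 396 ± 13.8), and its means at ZT0 were 280 ± 13.2 in SD and 167 ± 4.52 in Ctrl. At ZT4 it was called lower (143 ± 5.08 against 329.9 ± 34.5) where Chil3 was higher, and at ZT8 and ZT20 it was not called. Of 8 tested type 2 activation genes, 3 were called lower and 2 higher at ZT4 and 6 lower and 0 higher at ZT16. Among all tested genes, 20.1% were called lower and 19.2% higher at ZT4, and 27.1% lower and 29.1% higher at ZT16.

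Ear1 (ENSMUSG00000072601, chr14:43818765-43875517, minus strand) and Ear2 (ENSMUSG00000072596, chr14:44102654-44103534, plus strand) encode eosinophil-associated ribonucleases of the RNase A family, secreted proteins with antimicrobial and chemoattractant activity in mice. Their promoters are shown because the pair can hardly be told apart by sequence, here too as the 250 bases before each RefSeq start in GRCm38.p6, written 5′ to 3′ on the gene's strand, Ear1 at chr14:43819640-43819889, minus strand and Ear2 at chr14:44102404-44102653, plus strand. Capitals mark the 4 bases in each that have no identical partner in the other.
Ear1: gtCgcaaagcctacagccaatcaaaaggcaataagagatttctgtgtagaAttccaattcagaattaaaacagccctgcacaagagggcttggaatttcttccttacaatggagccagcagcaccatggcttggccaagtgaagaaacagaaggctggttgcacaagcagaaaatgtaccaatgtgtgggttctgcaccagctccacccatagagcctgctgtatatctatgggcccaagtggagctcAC
Ear2: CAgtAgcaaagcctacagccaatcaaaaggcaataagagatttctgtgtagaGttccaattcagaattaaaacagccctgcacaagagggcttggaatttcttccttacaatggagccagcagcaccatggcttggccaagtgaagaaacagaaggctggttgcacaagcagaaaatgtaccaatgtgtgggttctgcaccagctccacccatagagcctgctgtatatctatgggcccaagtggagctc
The windows were 99.2% identical over 248 aligned bases, with an unbroken identical run of 197. The transcripts Ear1-201 (713 bases) and Ear2-201 (719 bases) were 96.8% identical, with a longest identical run of 96 bases. Counts of the 2 genes are therefore uncertain where a read fits both. The RefSeq start of Ear1 lies inside the span that the deposited table gives for it.

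In Ctrl lungs, Ear2 FPKM were 78.7, 82.7 and 85.6 at ZT0, 68.5, 75.2 and 70.98 at ZT4, 77.3, 85.4 and 79.1 at ZT8, 86.8, 92.6 and 90.6 at ZT12, 169, 165 and 168 at ZT16, 97.1, 72.2 and 95.7 at ZT20 and 70.7, 69.8 and 71.7 at ZT24. In SD lungs, Ear2 FPKM were 86.8, 86.5 and 84.8 at ZT0, 112, 126 and 114 at ZT4, 83.3, 90.4 and 93.7 at ZT8, 93.7, 89.4 and 98.9 at ZT12, 96.8, 105 and 96.9 at ZT16, 88.8, 86.3 and 82.8 at ZT20 and 111, 109.8 and 105 at ZT24. The 3 Ctrl libraries of ZT16 were far above all others, and outside ZT4, ZT16 and ZT24 the conditions overlapped. Ear1 had lower values: its FPKM in Ctrl libraries were 12.6, 17.6 and 15.8 at ZT4, 41.5, 40.00 and 41.9 at ZT16, 23.2, 16.98 and 23.6 at ZT20 and 17.1, 15.8 and 14.7 at ZT24. Its SD libraries were at 27.6, 28.02 and 28.4 at ZT4, 27.4, 28.7 and 22.9 at ZT16, 30.5, 27.7 and 28.2 at ZT20 and 27.7, 28.9 and 30.1 at ZT24. Replicate 2 of Ctrl at ZT20 was the lowest of its group in Ear1 and Ear2, and also in Siglecf, Atp6v0d2, Marco, Chil3 and Plet1. It was not the lowest in Mrc1 or Krt79. SD minus Ctrl at ZT16 was -0.75 ± 0.068 for Ear2 and -0.63 ± 0.11 for Ear1, both called (limma, adjusted p = 3.36e-11 and 6.43e-06). At ZT12 and ZT20 the difference was called for Ear1 (0.43 ± 0.11 and 0.43 ± 0.11) and not for Ear2 (0.061 ± 0.068 and -0.027 ± 0.068; limma, adjusted p = 0.485 and 0.751), although whether the 2 genes differ in their response was not tested. The ratio of Ear2 to Ear1 FPKM had group means between 4.07 and 5.14 in Ctrl and between 2.99 and 4.19 in SD. Another copy, Ear6, whose transcript was 88.8% identical to that of Ear1 and 89.2% to that of Ear2, had group means of 0.192 to 1.38 FPKM in Ctrl and up to 4.09 ± 1.07 (ZT8) and 4.396 ± 0.478 (ZT20) in SD, and was called higher in SD on average (0.91 ± 0.048; limma, adjusted p = 2.53e-17). Ear10 was at most 0.143 FPKM as a group mean.

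Inside the cell, Atp6v0d2 (ENSMUSG00000028238, chr4:19876841-19922605, minus strand) encodes the d2 subunit of the membrane sector of the V-ATPase, the proton pump of lysosomes and phagosomes, and is known from osteoclasts and macrophages. In Ctrl lungs, Atp6v0d2 FPKM were 7.30, 6.81 and 7.29 at ZT0, 6.18, 7.39 and 6.53 at ZT4, 9.55, 10.3 and 8.99 at ZT8, 16.1, 17.2 and 16.5 at ZT12, 27.8, 28.7 and 26.8 at ZT16, 8.73, 6.48 and 8.57 at ZT20 and 8.18, 6.95 and 8.17 at ZT24. In SD lungs, Atp6v0d2 FPKM were 8.17, 8.51 and 9.42 at ZT0, 12.3, 11.6 and 11.6 at ZT4, 11.5, 13.1 and 12.3 at ZT8, 12.6, 14.6 and 13.7 at ZT12, 10.96, 11.3 and 11.2 at ZT16, 12.1, 11.6 and 11.6 at ZT20 and 12.2, 12.6 and 13.3 at ZT24. Ctrl libraries of ZT12 and ZT16 were above all other libraries of either condition, and SD libraries stayed between 8.17 and 14.6. SD minus Ctrl was -1.24 ± 0.074 at ZT16 (2.36-fold lower; limma, adjusted p = 1.13e-15) and 0.74 ± 0.074 at ZT4 (1.67-fold higher; limma, adjusted p = 1.11e-09). Of the 16 other V-ATPase genes examined, 4 were called higher and 5 lower at ZT16 with a median of -0.0061 log2 units, and 2 were called higher and 8 lower at ZT4 with a median of -0.13. The shares over all tested genes were 29.1% higher and 27.1% lower at ZT16, and 19.2% higher and 20.1% lower at ZT4. Atp6v0d1, the widely expressed counterpart of Atp6v0d2 with a transcript 65.3% identical to it, differed by 0.026 at ZT16 and 0.11 at ZT4, neither called.

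Krt79 (ENSMUSG00000061397, chr15:101929332-101940324, minus strand) encodes a type II keratin that is also found in hair follicle and sebaceous gland epithelium. Its FPKM in Ctrl libraries were 4.20, 4.29 and 3.91 at ZT0, 13.7, 11.9 and 12.6 at ZT16 and 5.68, 6.17 and 5.35 at ZT20. SD libraries were at 7.68, 8.195 and 7.32 at ZT0, 7.42, 8.01 and 7.89 at ZT16 and 12.6, 12.01 and 12.6 at ZT20. SD at ZT20 reached the level of Ctrl at ZT16, and these 2 groups overlapped, which made Krt79 the only one of the 8 genes with a Ctrl maximum at ZT16 whose next group was not apart from it. SD minus Ctrl was 0.77 ± 0.059 at ZT0, -0.64 ± 0.059 at ZT16 and 0.99 ± 0.059 at ZT20, each called (limma, adjusted p = 2.52e-12, 3.71e-11 and 1.05e-15).

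Plet1 (ENSMUSG00000032068, chr9:50494525-50505482, plus strand) encodes a GPI-anchored surface protein of macrophages, dendritic cells and epithelial progenitors. In Ctrl lungs, Plet1 FPKM were 17.00, 13.8 and 15.5 at ZT0, 16.05, 16.5 and 16.8 at ZT4, 43.4, 44.3 and 45.6 at ZT8, 51.6, 52.9 and 57.2 at ZT12, 36.8, 43.6 and 41.7 at ZT16, 14.3, 11.5 and 14.3 at ZT20 and 27.6, 28.8 and 29.8 at ZT24. In SD lungs, Plet1 FPKM were 16.6, 17.5 and 16.2 at ZT0, 22.7, 21.4 and 20.3 at ZT4, 19.2, 19.3 and 18.8 at ZT8, 17.6, 17.7 and 17.8 at ZT12, 23.2, 23.1 and 23.9 at ZT16, 23.6, 23.9 and 22.6 at ZT20 and 19.7, 21.5 and 20.9 at ZT24. Ctrl libraries from ZT8 to ZT16 and at ZT24 were above every SD library, and SD libraries ranged only from 16.2 to 23.9. SD minus Ctrl was -1.18 ± 0.064 at ZT8, -1.55 ± 0.064 at ZT12 (2.93-fold lower; limma, adjusted p = 1.67e-19) and 0.76 ± 0.064 at ZT20. Averaged over the 7 times, Plet1 was the only one of the 9 called lower in SD (-0.39 ± 0.024; limma, adjusted p = 1.68e-15), and from ZT0, ZT4 and ZT20 alone it was called higher (0.42; limma, adjusted p = 1.12e-06). The times so left out are those at which plasma cell genes were high in Ctrl, and at each of them Plet1 was called lower. Over the 14 group means of log2(FPKM + 1), the genes most like Plet1 were Lcn2 (Pearson r = 0.98), AA467197 (0.96) and Pigr (0.95). Lcn2 encodes the siderophore-binding lipocalin 2 and Pigr the receptor that carries polymeric immunoglobulin across epithelium. At ZT12 Lcn2 stood at 357 ± 7.95 FPKM in the Ctrl group against 58.2 ± 2.32 in SD, and Pigr at 127 ± 3.1 and 14.4 ± 0.349. These are descriptions over group means from the same libraries, and the part of other cell types in the Plet1 level was not tested.

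Time by time, the median SD minus Ctrl difference of the 9 genes changed sign after ZT8 and again after ZT16. At ZT0, 5 were called higher and 0 lower (37.7% of all tested genes were called in either direction, 18.0% higher), with a median difference of 0.22 log2 units. At ZT4, 9 were called higher (39.2% of all genes in either direction, 19.2% higher and 20.1% lower) and the median was 0.70. At ZT8, 7 were called higher and Plet1 lower (56.0% of all genes in either direction, 27.1% higher and 28.9% lower), median 0.37. At ZT12, Ear1 alone was called higher, and 5, namely Siglecf, Mrc1, Chil3, Plet1 and Atp6v0d2, were called lower (48.9% of all genes in either direction, 24.4% lower), median -0.26. At ZT16, 9 were called lower (56.1% of all genes in either direction, 29.1% higher and 27.1% lower), median -0.75. At ZT20, 7 were called higher and 0 lower (61.4%, 33.0% higher), median 0.63, and Siglecf and Ear2 were not called. At ZT24, 8 were called higher and Plet1 lower (46.8%, 24.4% higher and 22.3% lower), median 0.61. The median over all tested genes was between -0.011 and 0.017 at every time. Of the 63 pairs of a gene and a time, 37 were called higher, 16 lower and 10 were not called. When the values were scaled to equal totals of reads, the median of all genes moved by -0.18 at ZT20, and there Siglecf was at -0.14, Ear1, at 0.23, was no longer called, and Ear2, at -0.24, was called lower (limma, adjusted p = 0.002), so that 0 lower at ZT20 became 1. In the same scaling Krt79 at ZT12 was called lower (-0.16; limma, adjusted p = 0.0201). That scaling also left Siglecf at ZT0 (0.16) and ZT8 (0.13) and Mrc1 at ZT24 (0.12) no longer called (limma, adjusted p = 0.0694, 0.124 and 0.0682).

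**Figure D2:**
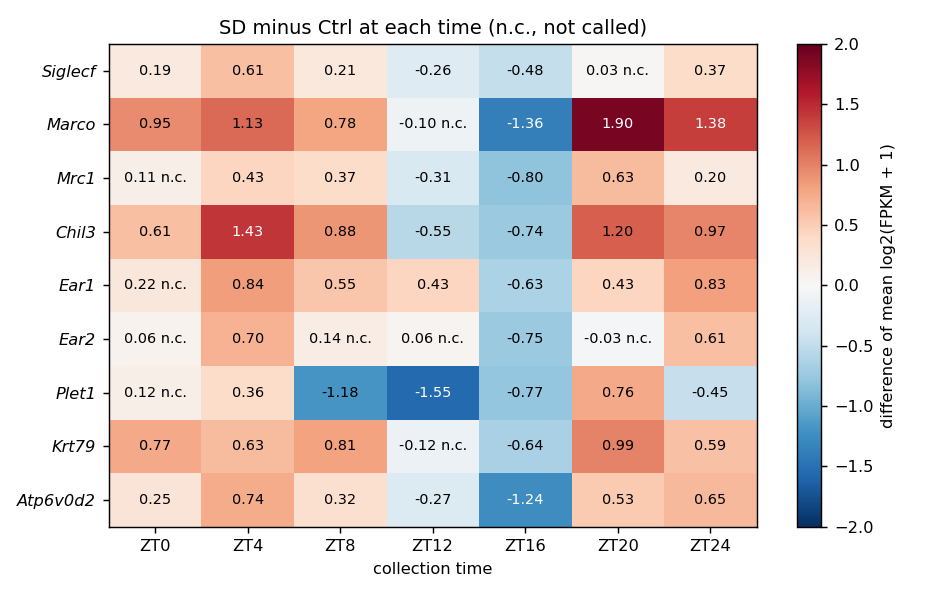
SD minus Ctrl for each of the 9 genes (rows) at each collection time (columns), as the difference of mean log2(FPKM + 1) in numbers and colour, with n.c. where it was not called. All 9 are positive at ZT4 and negative at ZT16, and Plet1 is also negative at ZT8, ZT12 and ZT24.

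Averaged over the 7 times, 8 genes were called higher in SD and Plet1 lower, where 34.6% of all tested genes were called higher and 35.3% lower (69.9% in all), with a median of 0.14 log2 units. The differences in order of size were 0.67 ± 0.038 for Marco, 0.54 ± 0.018 for Chil3, 0.43 ± 0.022 for Krt79, 0.38 ± 0.04 for Ear1, 0.14 ± 0.028 for Atp6v0d2, 0.12 ± 0.026 for Ear2, 0.095 ± 0.026 for Siglecf, 0.09 ± 0.019 for Mrc1. The 4 smallest, from Atp6v0d2 down, were between 1.06-fold and 1.10-fold, and they combine differences of both signs. Without ZT16, an alternative added after the data were seen, 8 were again called higher and 1 lower (67.5% of all tested genes, 33.1% higher and 34.3% lower), with a median of 0.37. From ZT0, ZT4 and ZT20 alone, 9 were called higher (55.3% of all tested genes, 27.8% higher and 27.5% lower) with a median of 0.50. At the times so kept 0 of the 9 were called lower singly, and ZT12 and ZT16, with medians of -0.26 and -0.75, were left out. That count therefore follows largely from the choice of times. Without ZT24, 5 were called higher and 1 lower (70.2% of all tested genes, 34.0% higher and 36.3% lower), with a median of 0.072, and Siglecf (0.049), Ear2 (0.033) and Atp6v0d2 (0.055) were no longer called (limma, adjusted p = 0.152, 0.324 and 0.106). Scaled to equal totals of reads, 5 were called higher and 1 lower (71.5% of all tested genes, 24.2% higher and 47.3% lower) with a median of 0.072, and Siglecf, Mrc1 and Ear2 were no longer called. With the 14 group means as units, so that the 7 time-matched pairs are the replicates, none of the 9 was called (16.9% of all tested genes were, 9.16% higher and 7.79% lower), and the lowest adjusted p was 0.132, for Ear1, in limma. The test of whether the SD effect differs between the times was called for all 9 (81.7% of all tested genes), with adjusted p from 3.27e-24 for Chil3 to 3.5e-09 for Ear1 in limma.

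A cosine with a period of 24 h was fitted to the 21 libraries of each condition. In Ctrl it was called for all 9 genes (57.6% of all tested genes), and in SD for 0 of 9 (9.20%), where Siglecf came nearest (0.16 ± 0.044 log2 units, adjusted p = 0.0556 in limma). The amplitude in Ctrl was largest for Marco (1.06 ± 0.14), followed by Chil3 (0.91 ± 0.13), Atp6v0d2 (0.82 ± 0.097) and Plet1 (0.81 ± 0.13), and was between 0.36 and 0.51 for the other 5. Fitted peaks in Ctrl lay between 11.4 h after lights on for Plet1 and 16.3 h for Siglecf and Ear1. Amplitudes in SD were between 0.028 and 0.16. The difference of the amplitudes was not tested by itself; the differing time courses are covered by the test of the SD effect over times. Without ZT16, an alternative added after the data were seen, the Ctrl rhythm of Ear1 was lost (amplitude 0.18, adjusted p = 0.179 in limma) while that of the other 8 stayed called. The share of all tested genes called in that setting is not given here, so these 8 calls do not set the genes apart. With the 7 group means of a condition as units, 0 of 9 were called in Ctrl (2.27% of all tested genes) and 0 in SD (0.0118%). SD levels were not constant either: an F test among the 7 times was called for all 9 genes in SD (79.7% of all tested genes) as in Ctrl (74.3%).

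**Figure D3:**
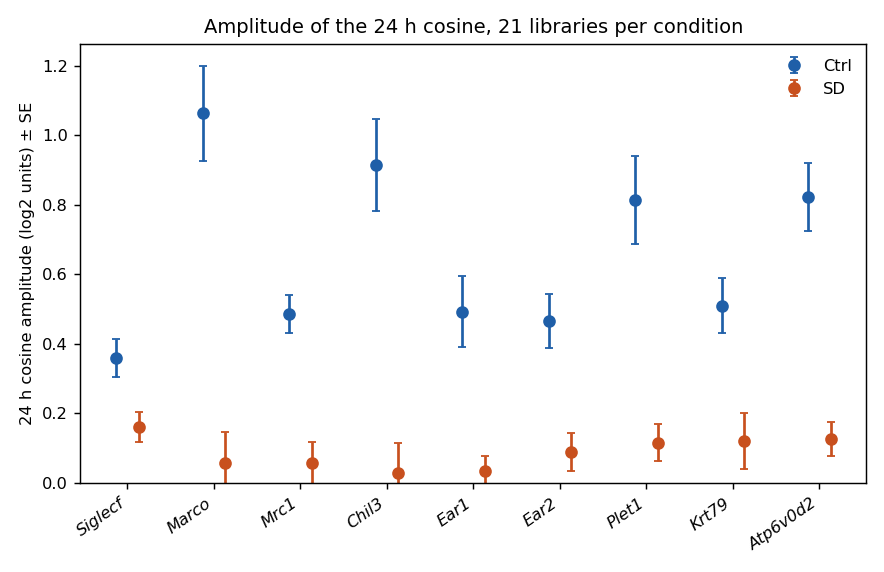
Amplitude of the fitted 24 h cosine in log2 units for each of the 9 genes, Ctrl in blue and SD in orange, from 21 libraries per condition, with bars for the standard error. Ctrl amplitudes lie between 0.36 and 1.06 and SD amplitudes between 0.028 and 0.16.

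ZT0 and ZT24 are the same clock hour on successive days. Cage hours ended at clock hour 10, after the clock hour of ZT0, so it is not known whether lungs of ZT0 were taken before or after the last cage period ended. In Ctrl, ZT24 minus ZT0 was called higher for Chil3 (0.25 ± 0.047), Plet1 (0.86 ± 0.064) and Krt79 (0.24 ± 0.059) and lower for Ear2 (-0.22 ± 0.068), where 12.9% of all tested genes were called, 6.94% higher and 5.97% lower. In SD it was called higher for 8 genes (38.5% of all tested genes, 20.4% higher), from 0.15 ± 0.051 for Mrc1 to 0.61 ± 0.047 for Chil3, and not for Krt79 (0.06 ± 0.059; limma, adjusted p = 0.454).

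Across the 14 group means, the levels of the 8 genes other than Plet1 moved alike. Their 28 pairs had Pearson r between 0.62 and 0.91 (median 0.81), and between 0.35 and 0.88 (median 0.71) when Ctrl at ZT16 was left out, whereas the 8 pairs with Plet1 had r between 0.040 and 0.58 (median 0.37). These correlations are descriptions over 14 points that share libraries and the same high group. By the same measure, the genes most like the mean of the 9 were Ctsd (r = 0.95), Zbed4 (0.93), Il1rn (0.93), Gpnmb (0.93), Ifi30 (0.92), Axl (0.91), Ctsa (0.91), Dnase2a (0.91), Gdap2 (0.90) and Eed (0.90). Singly, Gpnmb was nearest to Marco (0.96) and to Mrc1 (0.93), Gdap2 to Chil3 (0.94), Fpr2 to Ear1 (0.93), Klhdc4 to Ear2 (0.92), Psd to Siglecf (0.88), Rasa4 to Krt79 (0.94) and Ifi30 to Atp6v0d2 (0.97). In the order of levels, Ctrl at ZT16 was first for 8 genes and its libraries did not overlap those of the next group for 7 of them. Further down most neighbours overlapped: 2 of 13 neighbouring groups were apart for Siglecf and 1 of 13 for Ear1, against 9 of 13 for Chil3. Reads per library were 220 to 593 for Siglecf, 253 to 856 for Ear1 and 8374 to 41179 for Chil3. Shares of all tested genes were not computed for these orders, so the counts only describe these genes and do not set them apart.

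Other genes of alveolar macrophages, a list of 20 that does not include the 9, had a median below 0 at ZT16 and above 0 at ZT4. At ZT16, 16 were called lower and 4 higher (median -0.38 log2 units), and at ZT4, 13 were called higher and 1 lower (median 0.25). Of all tested genes, 27.1% were called lower and 29.1% higher at ZT16, and 19.2% higher and 20.1% lower at ZT4. At ZT16 the largest falls were of Itgax, the integrin CD11c (-1.82), the cysteine protease Ctsk (-1.64) and the oxidized lipoprotein receptor Olr1 (-1.11). At that time Itgax measured 30.1 ± 0.878 FPKM in Ctrl lungs against 7.78 ± 0.105 in SD. Of 7 dendritic cell genes, 5 were called lower and 1 higher at ZT16 (median -0.73). On average 5 of the dendritic cell genes were called lower and 2 higher (median -0.39), and 3 and 0 with group means as units. The part of dendritic cells in the Itgax level was not tested. Averaged over the times, 12 of the 20 were called higher and 5 lower (median 0.12, and 3 and 1 with group means as units), among the higher ones the lipid droplet genes Cidec (0.36 ± 0.027) and Plin2 (0.36 ± 0.017) and among the lower ones Itgax (-0.57 ± 0.019), Fabp5 (-0.48 ± 0.02), a fatty acid binding protein, and the scavenger receptor Msr1 (-0.32 ± 0.03). On that average 34.6% of all tested genes were called higher and 35.3% lower, and with group means 9.16% and 7.79%. Lpl, the lipoprotein lipase, was called higher at each time from ZT4 to ZT20, and its ZT20 group means in FPKM were 13.7 ± 1.81 (Ctrl) and 79.9 ± 4.2 (SD). Several of the 20 are known in other lung cells too, among them Car4, Cd36, Fabp4, Krt19, Perp, Lpl, Cidec and Plin2. That naming was by hand and may be incomplete, so the rest are not shown to be particular to alveolar macrophages. The 4 called higher at ZT16 were Cd36, Lpl, Krt19 and Perp. The part of other cells in the levels of the 20 was not tested. Adipoq, a defining adipocyte gene looked up after the values were seen, was at most 6.89 ± 0.817 FPKM as a group mean and at 0.162 ± 0.119 in SD at ZT20, where Lpl was highest. Which cells the Lpl transcripts came from was not tested, and 1 gene cannot decide it.

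The GM-CSF and TGF-beta program, 12 tested genes, was called lower for 9 genes at ZT16 (median -0.42) and higher for 7 at ZT4 (median 0.26), and averaged over the times 9 were lower and 1, Cebpb (0.30 ± 0.034), higher. That average depended on the times in it: 5 were lower and 3 higher without ZT16, 3 lower and 6 higher from ZT0, ZT4 and ZT20 alone (median 0.053), and 0 were called with group means as units. Shares of all tested genes were 27.1% lower at ZT16, 19.2% higher at ZT4, and 35.3% lower and 34.6% higher on average. They were 34.3% lower and 33.1% higher without ZT16, and 27.5% and 27.8% from ZT0, ZT4 and ZT20 alone. With group means as units, 16.9% were called. At ZT16 the GM-CSF receptor genes Csf2rb (-0.89), Csf2rb2 (-1.27) and Csf2ra (-0.55) were lower together with Pparg (-0.69), whose group means were 5.27 ± 0.157 FPKM in Ctrl and 2.90 ± 0.335 in SD, and Spi1 (-0.86). At ZT4 Csf2rb (0.57), Csf2rb2 (0.70), Spi1 (0.69) and Pparg (0.26) were higher. Csf2, the gene of GM-CSF itself, did not pass the test at ZT16 (0.091) and was lower at ZT20 (-1.14), at 0.594 ± 0.141 FPKM in SD and 2.52 ± 0.497 in Ctrl.

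Averaged over the times, the lists of shared macrophage, interstitial macrophage and monocyte genes each had more genes called lower than higher in SD, where 35.3% of all tested genes were called lower and 34.6% higher. When each group counted as 1 value, 1 of the shared genes was called lower and 1 higher, 5 of the interstitial genes lower and 2 higher, and 3 of the monocyte genes lower and 1 higher. In that setting 7.79% of all tested genes were called lower and 9.16% higher. From ZT0, ZT4 and ZT20 alone, 4 of the shared genes were called lower and 3 higher (27.5% and 27.8% of all tested genes). Of 8 genes shared by all macrophages, all were called higher at ZT4, 6 lower and 2 higher at ZT16, and 6 lower and 2 higher on average (median -0.24), the higher ones being Mertk (0.58 ± 0.022) and Lyz2 (0.15 ± 0.018). The part of other cell types in the levels of these 8 genes was not tested. At ZT4 19.2% of all tested genes were called higher, and at ZT16 27.1% were called lower and 29.1% higher. Of 11 tested interstitial macrophage genes, 9 were called lower and 2 higher on average (median -0.40), and the same counts were found at ZT16. The complement genes C1qa (-0.60 ± 0.035) and C1qb (-0.65 ± 0.029) and the fractalkine receptor Cx3cr1 (-0.90 ± 0.031) fell, and Lyve1 (1.32 ± 0.013), also a gene of lymphatic endothelium, and Cd163 (0.43 ± 0.025) rose. Of 9 monocyte genes, 7 were called lower and 2 higher on average (median -0.35). Among the lower ones were Ccr2 (-0.89 ± 0.021) and Ly6c2 (-0.79 ± 0.024), and the higher ones were Ace (0.60 ± 0.016) and Fcgr4 (0.095 ± 0.031). At ZT20 the medians were -0.26 for the shared, -0.46 for the interstitial and -0.40 for the monocyte genes, against 0.63 for the 9; whether the lists differ from each other was not tested. Mki67, a proliferation gene of all cell types, was highest in Ctrl at ZT16 (16.2 ± 0.763 FPKM) and at 1.67 ± 0.0692 in SD, and its part in the results was not tested.

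**Figure D4:**
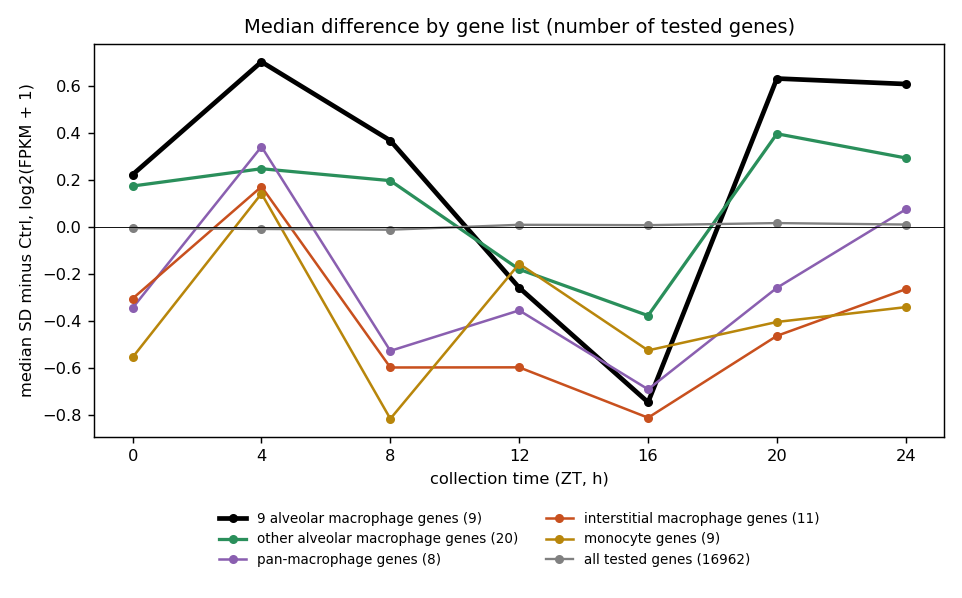
Median SD minus Ctrl difference of log2(FPKM + 1) against collection time for the 9 genes (black), 20 other alveolar macrophage genes, 8 shared macrophage genes, 11 interstitial macrophage genes, 9 monocyte genes and all 16962 tested genes (grey). All 5 lists lie above 0 at ZT4 and below 0 at ZT16, and at ZT20 the 9 genes and the other alveolar macrophage genes lie above 0 and the rest of the lists below.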

How the data were processed

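Lung RNA was extracted with TRIzol and made into libraries with a NEBNext Ultra RNA kit, per the labels' protocols. The submitters' processing notes name HISAT2 2.0.5, featureCounts 1.5.0-p3 and mm10; the sources used here do not state their settings, nor how strand and reads that fit more than 1 gene were handled. The values deposited by the authors are FPKM for 54532 genes. Value times gene length came in whole steps: 99.94% or more of the values of each library lay within 0.1 of a whole read, which gave the read numbers, and the log of the steps followed size factors by the median of ratios to within 8.55e-05. For 27 genes a symbol stored as a date was restored.

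Values were tested as log2(FPKM + 1) with limma 3.58.1 in R 4.3.3 (eBayes with trend), over 16962 genes with a mean of at least 0.5 FPKM, as 14 group means that share 1 estimate of the spread, with Benjamini-Hochberg adjustment over all genes within a contrast and a threshold of 0.05. A fold is the antilog of a difference on this scale and understates changes of low genes. A 24 h cosine was fitted per condition to 21 libraries. The scripts were tested on simulated data. FPKM rather than counts were tested because no counts were given; voom on the recovered reads is an alternative. Genes named are the 9, those of the lists, and the 3 most like each of the 9 and 10 most like their mean. The 9 genes, the lists and the alternatives were chosen with earlier results of these data known. Promoters come from RefSeq (GRCm38.p6) and transcripts from GENCODE vM21, aligned with Biopython 1.88; protein sequences were not used here. Same-numbered libraries did not deviate together (median correlation 0.00025 over 273 pairs, from -0.14 to 0.15), so replicate numbers were not taken as pairs. Intervals for counting error are not given, since the spread between libraries is used throughout.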

Additional observations from a re-analysis of the deposited data

Results flagged for a closer look

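The SD effect differed between the 7 times for each of the 9 genes, by limma's F test of the interaction of condition and time over all 42 libraries. The adjusted p was 3.27e-24 for Chil3, 1.95e-20 for Plet1, 4.66e-18 for Marco, 2.52e-17 for Krt79, 7.59e-17 for Mrc1, 1.53e-16 for Atp6v0d2, 2.46e-13 for Ear2, 2.14e-10 for Siglecf and 3.5e-09 for Ear1. For Chil3 the effect ran from -0.74 log2 units at ZT16 to 1.43 at ZT4, and for Marco from -1.36 at ZT16 to 1.90 at ZT20, in each case with no overlap of the 3 SD and 3 Ctrl libraries. For Plet1 it ran from -1.55 at ZT12 to 0.76 at ZT20. The same test was called for 81.7% of all tested genes, so a call by itself does not set the 9 apart.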

How the results depend on the processing

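The counts of called genes among the 9 were within 1.5 times of those reported under another pseudocount, no filter on low values, voom on the recovered reads, array weights and fits of single times. The number with a 24 h rhythm in SD was the exception: 0 as reported, 1 after median-of-ratios rescaling, 1 without ZT24, 1 without ZT16, 9 when an F test among the times replaced the cosine, and 0 to 1 when 1 library at a time was left out. With group means as units, the 9 averaged calls became 0 and the 9 rhythms in Ctrl became 0. Over all genes, 11857 averaged calls became 2875 with group means, 9767 rhythms in Ctrl became 385, and 1560 rhythms in SD became 3909 with array weights, 2 with group means and 13516 with the F test. Siglecf at ZT20, 0.030 as reported and not called, became -0.14 when scaled by total reads and ran from -0.029 to 0.098 with 1 library left out; Ear2 at ZT20, -0.027, ran from -0.16 to 0.047. Plet1 averaged over the times, -0.39, became 0.42 without ZT8, ZT12, ZT16 and ZT24, the times at which it was called lower. The cause was not tested. Of the values of single genes, 5813 kept their direction and side of the threshold, 53 lost a call, 32 gained one and 6 reversed. With a replicate block, which the numbers do not justify as pairing, 9 of the 9 genes and 11888 of all genes were called on average, against 9 and 11857 without it, and no count among the 9 changed. Reads per library ran from 220 to 593 for Siglecf and from 8374 to 41179 for Chil3. Counting error weighs more at low read numbers, and its share of the spread was not estimated. The precision is also limited by 3 libraries per group.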
